A study of Sparus aurata with 9 samples.

Results

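The miR-130, miR-301 and miR-454 family was described across 9 small RNA libraries of gilthead sea bream (Sparus aurata) myoblasts. Its members were all entries of the miRNA table named miR-130, miR-301 or miR-454, whatever the letter, arm or suffix. This gave 18 of 862 entries, all of different sequence, of which 9 were named miR-130, 6 miR-301 and 3 miR-454. Cells of fast-twitch skeletal muscle were grown as primary cultures to day 8 and then placed in 1 of 3 media, with 3 libraries for each. CTR cells were kept for 36 h in a medium without amino acids, which the study describes as Earle's salts with vitamins and glucose. AA cells had 12 h of that medium and then 24 h with amino acids, supplied as DMEM. IGF1 cells had the same 12 h and then 24 h of the restriction medium with recombinant sea bream insulin-like growth factor 1 and bovine serum albumin, its carrier. All groups thus shared the first 12 h of restriction, the AA medium differed from that of CTR in more than amino acids, and growth factor and carrier were given together. The study worked with 3 independent cultures, but the labels do not tie libraries to cultures. The p-values given here thus reflect how much these libraries differ, which may be technical. Libraries of different groups may share a culture, and the main tests used no such pairing.

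A miRNA is cut from a hairpin precursor whose arms, 5p and 3p, can each give a mature strand of about the same length. The strand that is loaded into Argonaute pairs with messenger RNAs mainly through its seed, the bases 2 to 8 from its 5′ end, and lowers their stability and translation. miR-130, miR-301 and miR-454 are grouped as a family because their 3p strands share a seed. In mammals miR-130 is known to repress the adipogenic regulator Pparg and, in endothelial cells, the antiangiogenic homeobox genes Meox2 and Hoxa5. No target was measured in these libraries.

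The 3p sequences are shown first because the shared seed is what unites the family. They are written 5′ to 3′ with T as deposited, and the seed is in capitals. Names follow the table without the species prefix, except for dre-miR-130a, whose prefix tells it from another miR-130a entry. In a suffix, L and R stand for the 5′ and 3′ ends and the signed number for bases gained or lost there against the matched miRBase precursor's mature form.
miR-454b_R-2: tAGTGCAAtattgcttatagggt
miR-130b-3p: cAGTGCAAtaatgaaagggcat
miR-130a_R+1: cAGTGCAAtattaaaagggcat
dre-miR-130a: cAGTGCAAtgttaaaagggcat
miR-301d-3p: cAGTGCAAtagtattgtcaaagc
miR-301b: cAGTGCAAtagtattgtcatagc

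The seed AGTGCAA stood at bases 2 to 8 of 9 entries in the whole table. These were the 9 family entries not named as 5p, and they are called 3p strands here. No entry outside the family and no predicted candidate carried it there. The other 3p entries were length forms of those shown. miR-130a was miR-130a_R+1 without its last base, miR-130b_R+1 was miR-130b-3p with 1 more base at the 3′ end, and miR-454b_R+4 was miR-454b_R-2 with 3 more. Since these forms differ at the 3′ end, they keep the seed. Some members lie close to one another in sequence. Counted from base 1 at the 5′ end, miR-301d-3p and miR-301b differed by A20T, miR-130a_R+1 and dre-miR-130a by A10G, and miR-130b-3p and miR-130a_R+1 by A11T and G13A.

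The 5p strands differ where the 3p strands are alike, and all but miR-301a-5p_L+1 and miR-301d-5p_1ss10CT are shown.
miR-130b-5p: aCTCTTTCcctgttgcactact
miR-130a-5p_L+1: aACTCTTTccctgttgcactact
miR-301b-5p: gCTTTGACgatgttgcactact
mir-301a-p5_1ss11CT: gCTCTGACtttattgcactact
miR-130d-3-5p_2ss5CT12AG: gCCCTTTTtctgttgcactact
miR-130c-5p: gCCCTTTTtctgttgtactact
miR-454-5p_R+1_1ss12AG: aCCCTATCaatgttgcctctgct

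The 9 5p entries held 8 different seeds, again in capitals, and only miR-130c-5p and miR-130d-3-5p_2ss5CT12AG shared 1 (they differed by C16T in the order d to c). Their conserved part was the other end. The bases ttgcactact closed 7 of the 862 entries in the table, and all 7 were 5p strands of this family. Unlike the 3′ forms above, the forms that vary at the 5′ end have another seed: miR-130a-5p_L+1 was miR-130b-5p with 1 more base at the 5′ end, despite its name, and mir-301a-p5_1ss11CT contained miR-301d-5p_1ss10CT with 1 more base there. miR-301a-5p_L+1 had 21 bases and the seed TTTGACA. Apart from 1 base, it was miR-301b-5p without its first base.

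The libraries were similar in total normalized reads, 8.37e+06 to 9.02e+06, but not in inferred depth, and the family was a small part of them. In each library most low values came in whole steps of 0.773 to 1.21 normalized reads. Read as the worth of a single read, these steps gave inferred depths of 7045311 to 8010694 reads in CTR, 9766620 to 11214788 in AA and 7241678 to 9534840 in IGF1. Depth therefore moved with the groups, and its part in the results below was not tested. CTR replicate 1 had the lowest depth and the most entries at 0, 191 against 112 to 178 in the other libraries. An entry at 0 allows up to 3 reads, or 2.32 to 3.62 normalized reads by library, for counting error only. Of 8 muscle entries (miR-1, miR-133, miR-206 and miR-499), miR-1 rose in AA against both CTR and IGF1 (limma), and their summed level was 498012 to 697074 normalized reads in CTR, 706521 to 850728 in AA and 493552 to 634775 in IGF1. Entries of other cell types were also present. The 7 epithelial entries, of which miR-203a fell in AA against CTR, summed to 662 to 803 normalized reads in CTR, 414 to 495 in AA and 435 to 624 in IGF1, and liver miR-122 to 508 to 601, 296 to 382 and 302 to 412, so that for both every CTR library lay above all others. Of the 4 tested epithelial entries, 3 lay below and 1 above 0 in AA against CTR, and miR-203a averaged 333 in CTR and 128 in AA. The 9 fibroblast and smooth muscle entries summed to 334314 to 360619 in CTR, 302168 to 327571 in AA and 336383 to 366870 in IGF1, with every AA library below all others. Of the 7 tested ones, 5 lay below and 2 above 0 in AA against CTR, and 0 passed (smallest adjusted p 0.297, limma). The groups overlapped for endothelial miR-126 (85970 to 108520 over the 9 libraries), the 4 blood entries (1240 to 2363) and the 3 neural entries (48.4 to 92.0). No listed marker entry was at 0 in every library, and the part of such cells in the family's values was not tested. In bulk libraries, fewer cells of a type and less RNA per cell cannot be told apart.

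Family members differed widely in level, and a 5p strand led them. Each read spans a whole miRNA, so levels between members need no correction for length. Whether different sequences were captured equally was not tested, so members are compared in normalized reads only. The family took 0.143% ± 0.00893 (SD, n = 9 libraries) of all normalized reads. miR-130b-5p was the most abundant, with 5033 ± 835 normalized reads over the 9 libraries and rank 99 of 862 entries. miR-454b_R-2 (2648 ± 456, rank 133), miR-130b-3p (1543 ± 111, rank 155) and miR-130a_R+1 (971 ± 118, rank 178) came next. Each of these 4 stood apart from its neighbour, with no overlap between their ranges over the 9 libraries in the 3 steps between them. In the other 14 of 17 steps down the order the ranges of neighbours overlapped. miR-301d-3p had 569 ± 183 normalized reads, miR-130a 348 ± 34.0, miR-301b-5p 324 ± 86.2, miR-301b 263 ± 106, miR-130d-3-5p_2ss5CT12AG 236 ± 44.5 and miR-130c-5p 175 ± 40.6. Below 100 normalized reads on average were mir-301a-p5_1ss11CT (95.8 ± 24.2), miR-130b_R+1 (73.6 ± 19.0), miR-454-5p_R+1_1ss12AG (60.1 ± 12.3), miR-301a-5p_L+1 (38.4 ± 17.5), miR-130a-5p_L+1 (18.2 ± 11.1), miR-454b_R+4 (11.5 ± 2.36), miR-301d-5p_1ss10CT (6.41 ± 2.85) and dre-miR-130a (1.76 ± 4.09).

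**Figure D1:**
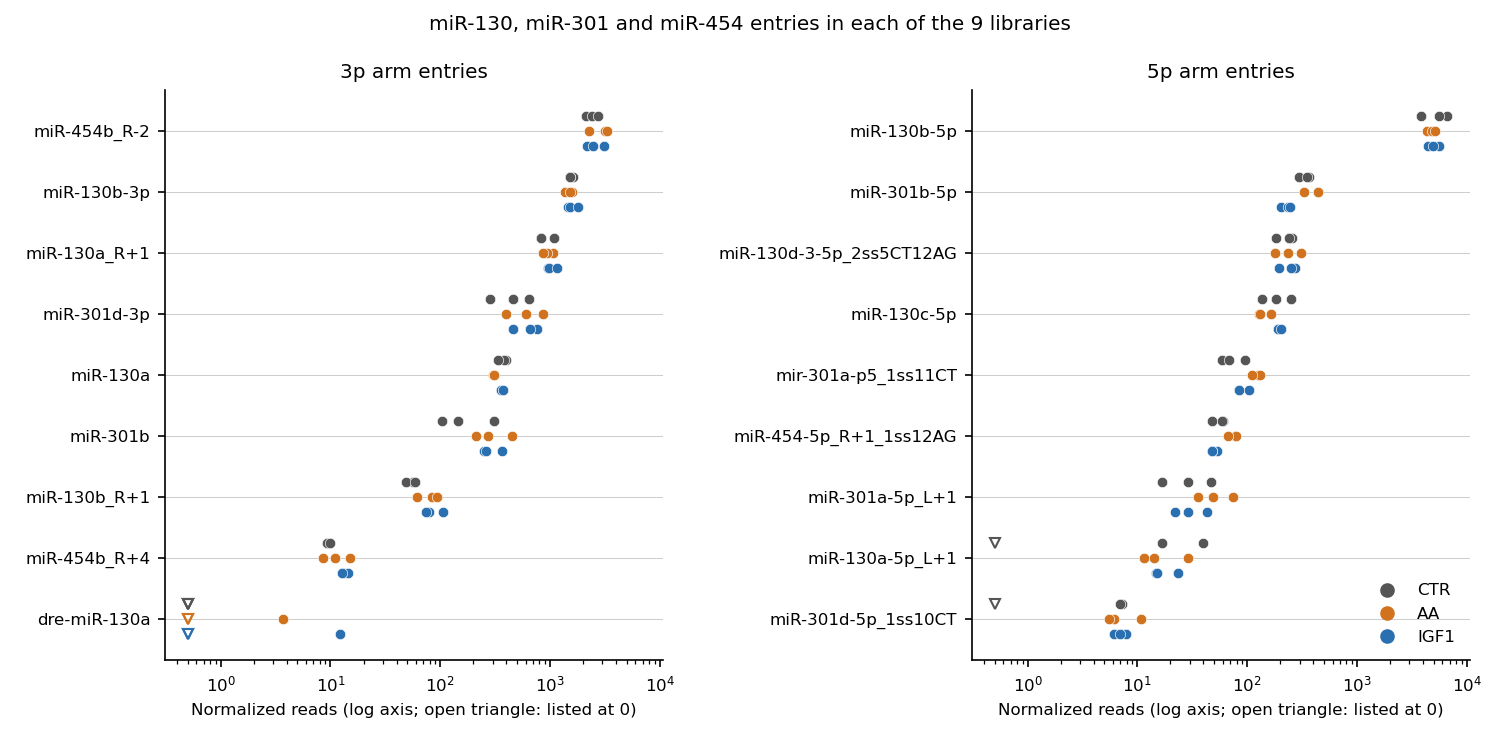
Normalized reads (log axis) of each family entry in each of the 9 libraries, as points coloured by group, with open triangles for values listed at 0. miR-130b-5p lies between 3814 and 6666 and miR-454b_R-2 between 2136 and 3309, while dre-miR-130a is listed at 0 in 7 libraries.

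Of the 18 entries, 16 reached 10 normalized reads in 3 or more libraries and were tested. The entries that did not were miR-301d-5p_1ss10CT, with 0 to 10.8 normalized reads, and dre-miR-130a. The latter was listed at 0 in 7 libraries, at 3.69 normalized reads in AA replicate 3 and at 12.2 in IGF1 replicate 3. In reads, these 2 values stood for 4 and 10.5. Fractions of a read, as arise when a read is shared between entries, also occurred for miR-130a_R+1, miR-130a, miR-301d-3p and miR-301b, so how the reads of these close sequences were split is uncertain. The other 13 members came out at whole reads in all 9 libraries.

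The 3p strands, which carry the family seed, summed to similar normalized reads in the 3 groups. In CTR the sum was 6240, 5621 and 6084 normalized reads for replicates 1 to 3, in AA 7331, 7132 and 5621, and in IGF1 6195, 7016 and 6617. In normalized reads these ranges overlapped for every pair of groups. As a share of each library's total, the sum was 0.0654% to 0.0733% in CTR, 0.0623% to 0.0846% in AA and 0.0740% to 0.0788% in IGF1. On that scale every IGF1 library lay above every CTR library, by a small margin, and AA overlapped with both. This difference was not tested. miR-454b gave 41.2% ± 4.46 (SD, n = 9) of these 3p reads, miR-130b 25.3% ± 2.78, miR-130a 20.6% ± 2.11, miR-301d 8.75% ± 2.36 and miR-301b 4.03% ± 1.44. The order of these shares was the same in all 3 group means.

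**Figure D2:**
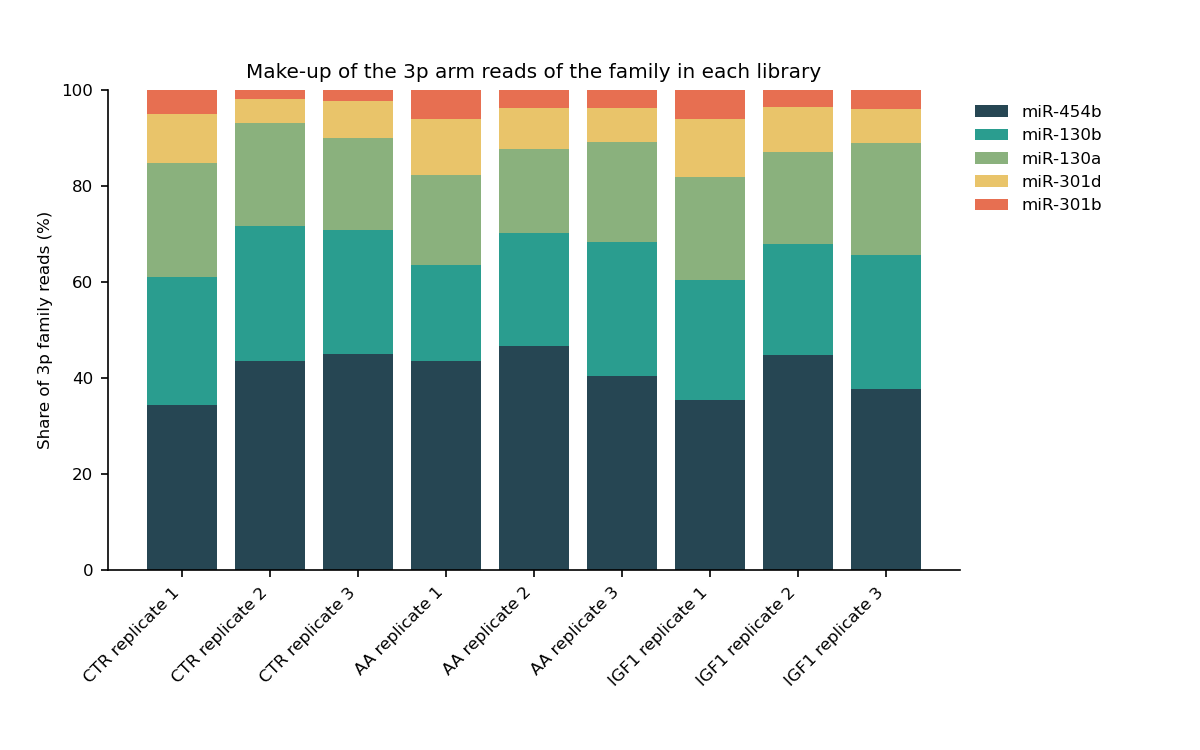
Share (%) of each miRNA in the 3p reads of the family, as stacked bars for the 9 libraries. miR-454b is the largest part in each, between 34.4% and 46.6%, and miR-301b the smallest, between 1.85% and 6.12%.

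The 5p strands together were about as abundant as the 3p strands, and 1 member accounted for most of them. Their sum was 4669, 7721 and 6450 normalized reads in CTR, 5259, 5957 and 6342 in AA and 5302, 6428 and 5764 in IGF1. miR-130b-5p made up 83.9% ± 2.22 (SD, n = 9) of it. The ratio of the 5p to the 3p sum was 1.06 ± 0.313 (SD, n = 3) in CTR, 0.894 ± 0.211 in AA and 0.881 ± 0.0314 in IGF1, with overlapping ranges. miR-130b-5p had more normalized reads than miR-130b-3p, the 3p entry of the same name, in all 9 libraries, by 2.37 to 4.35 times.

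Amino acids against restriction (AA against CTR) asks which family members follow the return of nutrients. Over the whole table, limma called 14 of 594 tested entries at an adjusted p of at most 0.05, which is 2.36% of them, and 0 of the 16 family entries passed. At an unadjusted p under 0.05 there was 1 family entry, beside 16.5% of all entries. The groups did not overlap for 4 family entries, beside 22.6% of all entries, of which 3 were higher and 1 lower in AA, beside 12.6% and 9.93% of all. Against these shares of the whole table, the family's counts are not a result about its members. The median family log2 fold change was 0.25, beside 0.08 over all tested entries.

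Of the 3 names, miR-301 had the highest median in this comparison. Its 5 tested entries had log2 fold changes of 0.25 to 0.83 with a median of 0.73, beside medians of 0.25 for the miR-454 and 0.00 for the 8 tested miR-130 entries, with none of them passing. The highest single value, 1.00, was that of miR-130a-5p_L+1, which had a CTR library at 0. mir-301a-p5_1ss11CT, named as a 5p strand of miR-301a, had 95.4, 58.8 and 68.7 normalized reads in CTR, 124, 130 and 112 in AA and 104, 85.1 and 83.5 in IGF1. Every AA library was above every CTR and every IGF1 library. Its log2 fold change in AA against CTR was 0.73 (SE 0.22, 95% interval 0.25 to 1.22, higher in 3 of 3 AA libraries), with an adjusted p of 0.122 in limma and between 0.00437 and 0.421 under the alternatives. It passed with weights per library and without CTR replicate 1 (log2 fold change 0.93, adjusted p 0.0252, limma), the library with the highest of the 3 CTR values. In these 2 settings 104 and 40 of the 594 tested entries passed over the whole table, against 14 in the main fit, so a pass there is not particular to this entry.

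miR-301b and miR-301d-3p, the 3p strands that differ by A20T, varied widely between replicates. miR-301b had 306, 104 and 144 normalized reads in CTR, 449, 270 and 212 in AA and 368, 249 and 264 in IGF1. miR-301d-3p had 640, 285 and 461 in CTR, 856, 604 and 398 in AA and 759, 663 and 460 in IGF1. For both, replicate 1 was the highest library of each of the 3 groups, and the groups overlapped. The log2 fold change of miR-301b in AA against CTR was 0.83 (SE 0.40, 95% interval -0.07 to 1.72), with an adjusted p of 0.347 in limma. Without CTR replicate 1 it was 1.26 with an adjusted p of 0.0475 (limma), and with weights per library 1.00 with an adjusted p of 0.0222. In these settings 40 and 104 of the 594 tested entries passed over the whole table, against 14 in the main fit. For miR-301d-3p the log2 fold change was 0.43 (SE 0.35), with an adjusted p of 0.542 in limma.

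The other tested miR-301 5p strands, miR-301b-5p and miR-301a-5p_L+1, also lay above 0 in AA against CTR. Over the whole table, 345 of 594 tested entries did so. Among the miR-301 entries, miR-301b and miR-301d-3p may not be independent, since the split of reads between close sequences is uncertain. The log2 fold change of miR-301b-5p was 0.25 (SE 0.18). miR-301a-5p_L+1 had 16.9, 28.8 and 46.5 normalized reads in CTR, 35.5, 74.9 and 48.9 in AA and 43.0, 28.7 and 22.0 in IGF1, with overlapping groups (AA against CTR log2 fold change 0.82, SE 0.43). miR-454-5p_R+1_1ss12AG is named as a 5p strand of miR-454, not of miR-301. It had 48.3, 60.0 and 58.7 in CTR, 78.0, 79.1 and 67.4 in AA and 53.5, 48.2 and 47.6 in IGF1. All 3 AA libraries lay above all 6 others. Its log2 fold change was 0.42 (SE 0.20) in AA against CTR and 0.58 (SE 0.20, 95% interval 0.14 to 1.02) in AA against IGF1, with adjusted p of 0.313 and 0.365 in limma.

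For the 4 most abundant members the log2 fold changes in AA against CTR lay between -0.12 and 0.25. miR-130b-5p had 3814, 6666 and 5538 normalized reads in CTR, 4366, 4843 and 5161 in AA and 4409, 5556 and 4948 in IGF1. The CTR libraries enclosed the values of the other groups, and the log2 fold change in AA against CTR was -0.12 (SE 0.20, 95% interval -0.58 to 0.33). For miR-454b_R-2, with 2136, 2434 and 2726 in CTR, 3185, 3309 and 2255 in AA and 2182, 3122 and 2480 in IGF1, it was 0.25 (SE 0.20, 95% interval -0.20 to 0.70). The interval of miR-130b-3p was the narrowest of the 3, -0.38 to 0.26 around -0.06. That of miR-130a_R+1 was -0.31 to 0.45 around 0.07. With 3 libraries a group, changes within these bounds cannot be told from no change.

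A few lower values in AA did not pass the test either. miR-130a, the 21-base form, had 399, 378 and 338 normalized reads in CTR, 305, 308 and 311 in AA and 360, 359 and 372 in IGF1. The AA libraries were the lowest 3 of the 9 and nearly equal to each other. The log2 fold change in AA against CTR was -0.27 (SE 0.14, 95% interval -0.58 to 0.05), with an adjusted p of 0.371 in limma. miR-130c-5p had 135, 253 and 184 in CTR, 128, 132 and 163 in AA and 190, 192 and 203 in IGF1. Its AA libraries lay below the IGF1 libraries but among those of CTR (AA against CTR log2 fold change -0.39, SE 0.23, adjusted p 0.411 in limma), and it passed with weights per library (-0.52, adjusted p 0.0442). With these weights 104 of the 594 tested entries passed over the whole table. miR-130d-3-5p_2ss5CT12AG, which shares the seed of miR-130c-5p, had 257, 242 and 183 in CTR, 178, 236 and 310 in AA and 276, 251 and 194 in IGF1, with overlapping groups and a log2 fold change of 0.06.

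**Figure D3:**
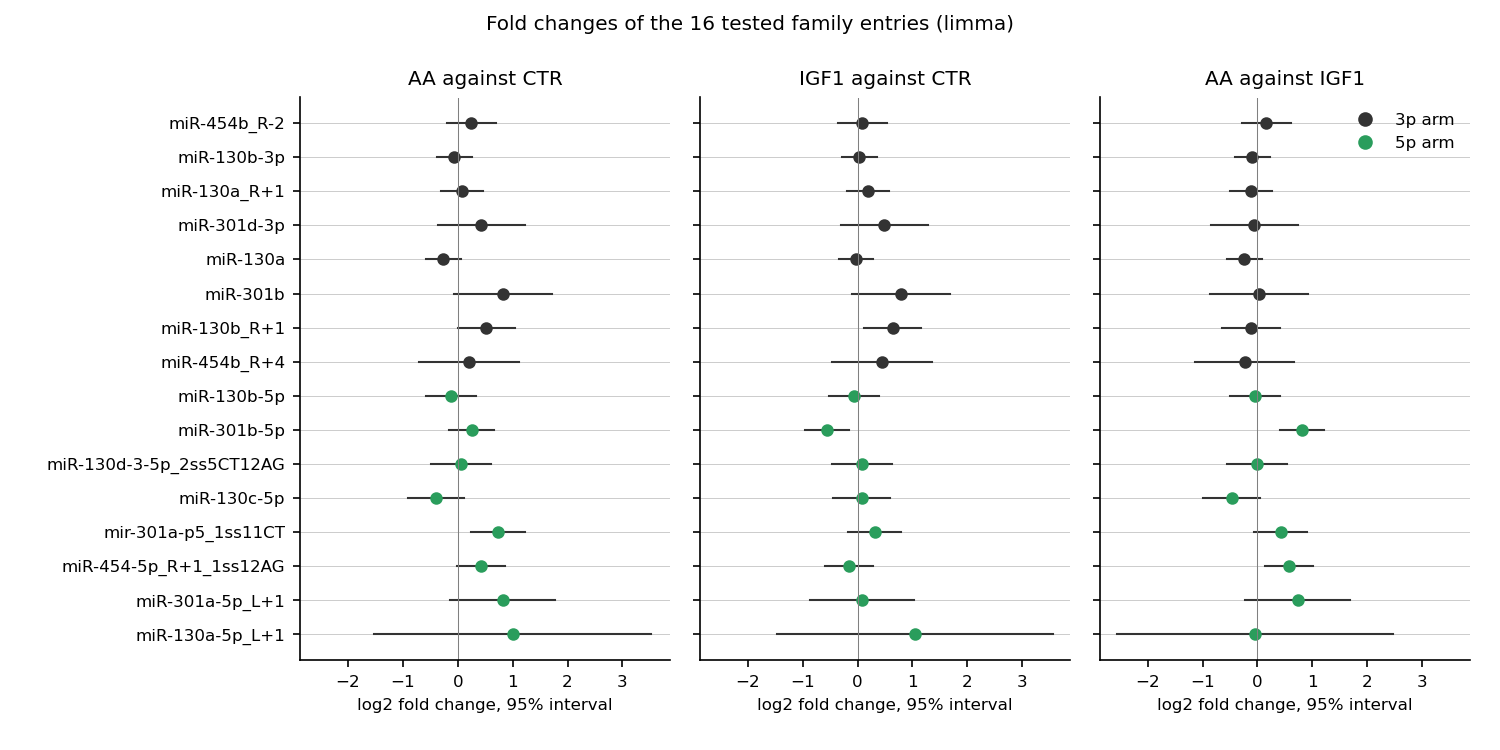
log2 fold changes (points, 3p arm dark and 5p arm green) with 95% intervals (lines) of the 16 tested entries, with 1 panel for each pair of groups. Most intervals cover 0, and that of miR-301b-5p in AA against IGF1 runs from 0.41 to 1.22.

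IGF1 against CTR, which asks what the growth factor does in the absence of amino acids, gave 0 calls among 594 entries (0.0%) and 0 among the 16 family entries in limma. An unadjusted p under 0.05 was reached by 61 entries in all (10.3%), and by 2 of the family. With the replicate number as a block, 2 entries of the table passed, none of them in the family. The groups did not overlap for 3 family entries, beside 13.3% of all entries, of which 2 were higher and 1 lower in IGF1, beside 5.56% and 7.74% of all. The median family log2 fold change was 0.08, beside 0.05 over all.

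The lower one was miR-301b-5p, named as a 5p strand of miR-301b. It had 295, 366 and 354 normalized reads in CTR, 331, 438 and 445 in AA and 204, 237 and 245 in IGF1. All 3 IGF1 libraries lay below all 6 others, and those of CTR and AA overlapped. The log2 fold change in IGF1 against CTR was -0.56 (SE 0.18, 95% interval -0.96 to -0.16), with an adjusted p of 0.367 in limma and between 0.0970 and 0.723 under the alternatives. miR-130b_R+1, the longer form of miR-130b-3p, was 1 of the higher ones, with 56.8, 48.4 and 58.7 in CTR, 85.0, 94.1 and 61.0 in AA and 79.0, 106 and 74.2 in IGF1. The 3 CTR libraries were the lowest of the 9. Its log2 fold change was 0.64 (SE 0.23, 95% interval 0.11 to 1.16) in IGF1 against CTR and 0.52 (SE 0.23) in AA against CTR, comparisons that share the CTR libraries, with adjusted p of 0.373 and 0.297 in limma. The other was miR-454b_R+4, at 9.66, 9.23 and 9.97 in CTR, 8.50, 15.0 and 11.1 in AA and 13.2, 14.4 and 12.8 in IGF1, which stood for 8 to 18 reads a library.

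Amino acids and growth factor were also set against each other (AA against IGF1). limma called 5 of 594 entries (0.842%) and 0 of the 16 family entries, with 2 at an unadjusted p under 0.05 beside 8.75% of all. The groups did not overlap for 5 family entries, beside 15.3% of all entries, of which 3 were higher and 2 lower in AA, beside 9.6% and 5.72% of all. The higher ones were miR-301b-5p, mir-301a-p5_1ss11CT and miR-454-5p_R+1_1ss12AG, and the lower ones miR-130a and miR-130c-5p.

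miR-301b-5p had the smallest p of the family in this comparison. Its log2 fold change of 0.81 (SE 0.18, 95% interval 0.41 to 1.22) corresponded to 1.76-fold more in AA than in IGF1, in 3 of 3 libraries, with an adjusted p of 0.0713 in limma and between 0.00724 and 0.285 under the alternatives. It passed with the replicate block (adjusted p 0.0228), with weights per library (0.89, adjusted p 0.00724) and without CTR replicate 1 (adjusted p 0.0432), which here changes only the shared spread. In these settings 10, 20 and 13 of the 594 tested entries passed over the whole table, against 5 in the main fit. The 8 tested miR-130 entries had log2 fold changes of -0.47 to -0.02, all below 0 and none past the test. Their median was -0.10, beside -0.00 over all entries, of which 297 of 594 lay below 0. The 8 include length forms of the same sequence. miR-130b_R+1, miR-130b-5p, miR-130d-3-5p_2ss5CT12AG and miR-130a-5p_L+1 changed sign with some library left out. The 5 tested miR-301 entries had a median of 0.42, with 4 above 0.

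The entries named miR-301b-5p and miR-301b were also set against each other within each library. They are paired by name, and whether 1 hairpin gives both was not analysed here. Their ratio was 0.963, 3.52 and 2.46 in CTR, 0.738, 1.62 and 2.10 in AA and 0.556, 0.953 and 0.927 in IGF1. A ratio within a library does not depend on how that library was scaled. The IGF1 values lay below all CTR values, with the closest at 0.953 and 0.963, and those of AA overlapped with both. In the libraries of these closest values miR-301b had fractional reads, 242.5 in IGF1 replicate 2 and 253.33 in CTR replicate 1. The ratio thus depends on how reads were split between close sequences, which is uncertain. Replicate 1 had the lowest ratio in each group. The difference of the mean log2 ratio was -1.36 between IGF1 and CTR and 0.79 between AA and IGF1 (exact permutation test, two-sided, p = 0.1 and p = 0.3, where 0.1 is the smallest p that 3 against 3 can give). Over the 15 such tests of 5 ratios the smallest adjusted p was 0.3. The first 8 bases of miR-301b-5p were the reverse complement of the last 8 of miR-301d-3p and had 1 mismatch to that of miR-301b. Set against miR-301d-3p instead, an alternative chosen after seeing the data, the ratio was 0.460, 1.28 and 0.769 in CTR, 0.387, 0.725 and 1.12 in AA and 0.270, 0.358 and 0.531 in IGF1. The 3 groups then overlapped, with a difference of the mean log2 ratio of -1.05 between IGF1 and CTR and 0.87 between AA and IGF1.

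**Figure D4:**
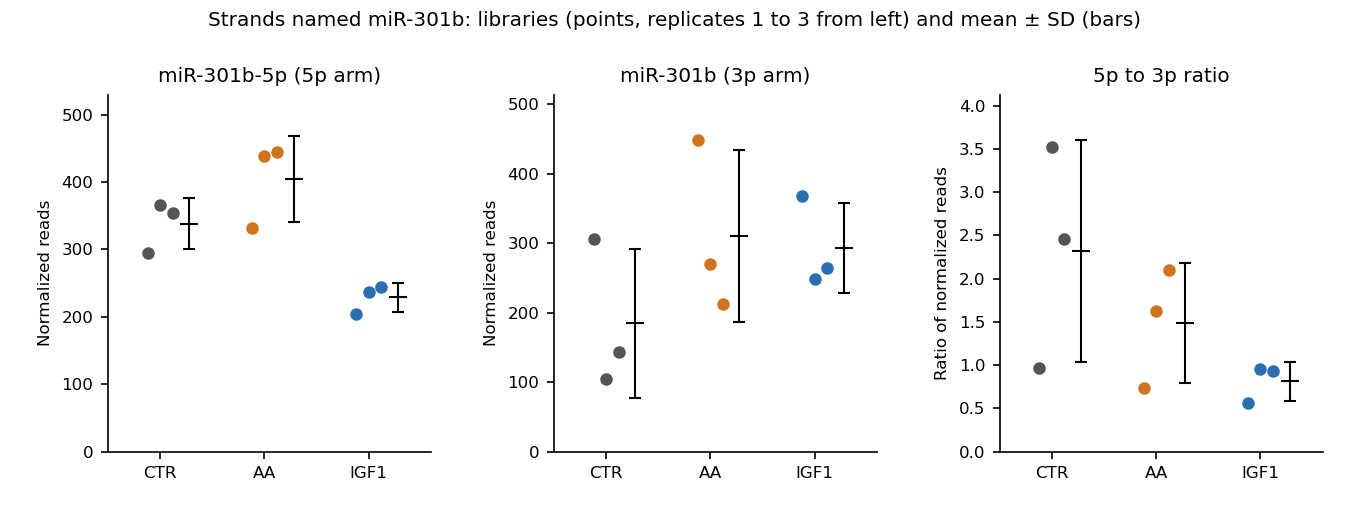
Normalized reads of miR-301b-5p and of miR-301b, and the ratio of the former to the latter, in each library (points, replicates 1 to 3 from left to right) with the mean and SD of 3 libraries (bars). The 3 IGF1 libraries have the lowest miR-301b-5p values, 204 to 245, and ratios of 0.556 to 0.953.

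Length forms of 1 sequence were compared in the same way. miR-130a_R+1 (22 bases) made up 71.0% ± 2.24 (SD, n = 3) of its sum with the 21-base miR-130a in CTR, 75.6% ± 2.19 in AA and 74.0% ± 1.57 in IGF1. Both forms have fractional reads, and how these were split is uncertain. The AA libraries, at 77.8%, 75.4% and 73.4%, lay above the CTR libraries, at 73.1%, 68.7% and 71.2%, by a small margin. The 23-base miR-130b_R+1 was a minor form of miR-130b, with 3.40% ± 0.337 of its 3p reads in CTR, against 5.10% ± 1.07 in AA and 5.20% ± 1.25 in IGF1. Each AA and IGF1 library was above each CTR library, the nearest values being 3.88% in AA and 3.74% in CTR. The 26-base miR-454b_R+4 was at most 0.600% of miR-454b reads, and its share in IGF1 (0.458% to 0.600%) lay above that in CTR (0.364% to 0.450%). These shares rest on 15, 14 and 11 inferred reads of this form in IGF1 and 8, 8 and 9 in CTR, and sequences over 26 bases were not kept. All 4 of these separations had p = 0.1 (exact permutation test, two-sided), the smallest p that 3 against 3 can give, and an adjusted p of 0.3. Since that smallest p lies above the threshold, no ratio could have passed, and the test cannot decide whether these shares differ. Of the 15 ratio tests, the groups did not overlap in 5, these 4 among them.

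**Figure D5:**
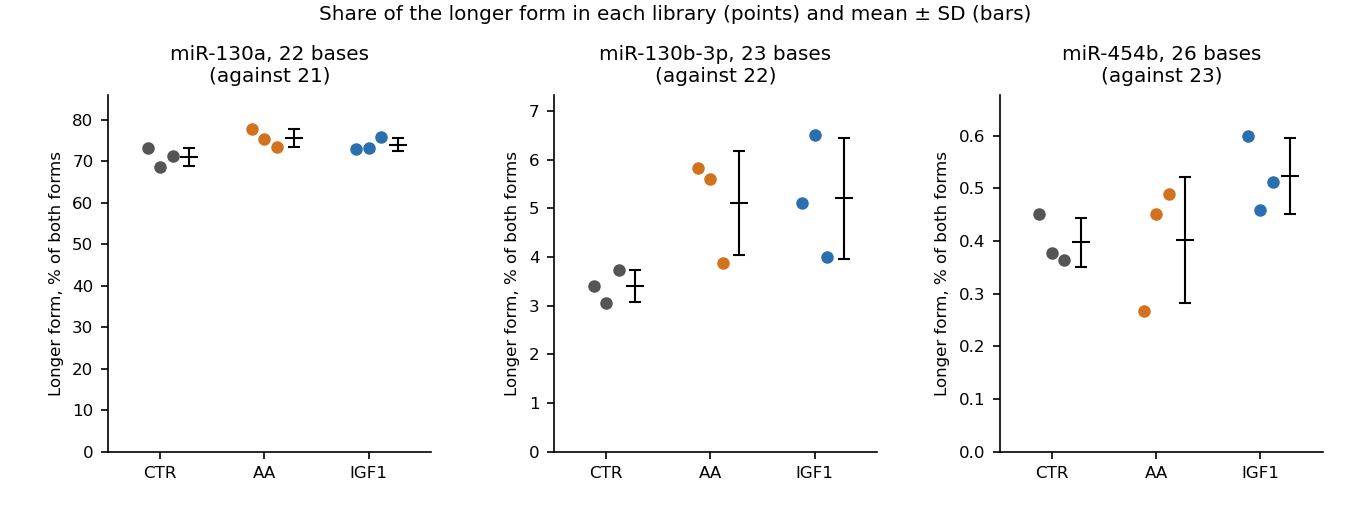
Share (%) of the longer form in the sum of both forms for miR-130a, miR-130b-3p and miR-454b, in each library (points) with the mean and SD of 3 libraries (bars). For miR-130b-3p the CTR libraries lie between 3.06% and 3.74% and the AA and IGF1 libraries between 3.88% and 6.50%.

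The forms that differ by 1 base at the 5′ end, and so in seed, came in unequal amounts. mir-301a-p5_1ss11CT was 89.5% to 100% of the reads it made up together with miR-301d-5p_1ss10CT, which was listed at 0 in CTR replicate 3. miR-130a-5p_L+1 was at most 0.585% of the reads it made up together with miR-130b-5p. It was listed at 0 in CTR replicate 1 and had 39.2 and 16.6 normalized reads in the other CTR libraries, 11.6, 14.2 and 28.6 in AA and 14.9, 23.6 and 15.1 in IGF1. The library at 0 set its log2 fold change, which was 1.00 in AA against CTR (95% interval -1.52 to 3.51) and -0.58 without that library.

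Members differed in how steady they were between replicates. The SD of log2 values, pooled over the 3 groups, was 0.34 in the median of all 594 tested entries. It was 0.07 for miR-130a, among the lowest 0.673% of them, 0.11 for miR-130b-3p and 0.13 for miR-454-5p_R+1_1ss12AG. The last stood for 40 to 101 inferred reads a library, and the part of counting error in these spreads was not tested. The pooled SD was 0.51 for miR-301d-3p, 0.58 for miR-301a-5p_L+1, 0.58 for miR-301b and 1.67 for miR-130a-5p_L+1. miR-301d-3p and miR-301b are among the entries with fractional reads, but so is the steady miR-130a. The part of such reads in these spreads was not tested.

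The profile of miR-130b-5p was set against the other named entries that passed the filter, by the root mean square difference of log2 values over the 9 libraries after each was centred on its mean. The closest were miR-23b_R+1 (0.07), miR-455-3p_L-1 (0.10) and miR-222a-3p_R+1 (0.10). Among family members the closest was miR-130c-5p (0.20, rank 57 among 436 other entries), followed by miR-130b-3p (0.24, rank 91). The 3 closest entries averaged 21920, 8479 and 5581 normalized reads, against 175 for miR-130c-5p and 1543 for miR-130b-3p. The part of level and counting error in these ranks was not tested.

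miRNAs with a related seed were given as counts. The seeds of miR-148, miR-152 and miR-19 overlap that of this family in part. None of 5 tested miR-148 and miR-152 entries and none of 6 tested miR-19 entries passed in any of the 3 comparisons.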

How the data were processed

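Small RNA of 9 libraries was sequenced single-end. The authors trimmed the reads, kept sequences of 18 to 26 bases, assigned them by BLAST to miRBase precursors and deposited normalized reads per miRNA entry, treated here as a signal. How they normalized is not given in the sources used here, nor is a genome build. The deposited group means and p-values were not used. Values were analysed as log2(value + 1) with limma 3.58.1 in R 4.3.3, in 1 model over the 3 groups with an intensity trend, for the 594 entries that reached 10 normalized reads in 3 or more libraries. P-values were two-sided and Benjamini-Hochberg adjusted over all tested entries, with a threshold of 0.05. The fit was also run on simulated data, with independent libraries and the same spread for every entry. The real entries differ in spread and the libraries may share cultures, so that run cannot decide how the p-values behave here. Inferred depths were 7045311 to 11214788 reads, with whole reads within 0.02 for 79.3% to 83.1% of values under 150, so no count model was used. Ratios within a library were compared by exact permutation tests. Same-numbered libraries deviated together with correlations of 0.30 to 0.40 for IGF1 and CTR, over 0.1 in 3 of 3 pairs, but in 1 of 3 pairs for AA and CTR and 2 of 3 for AA and IGF1. The pairing thus comes from the data, not the labels, and by the rule that all 3 pairs lie over 0.1 it was seen only for IGF1 and CTR. Neither the main fit nor the ratio tests used it. The replicate block was an alternative fit, run for every comparison. Named entries were all family members, the 3 entries closest in profile to the most abundant one and lists of related miRNAs. The members and lists were chosen with earlier results of these data known. 1 further list of miRNAs is not reported here. Sequences come from the deposited table. Alternatives were pseudocounts of 0.5 and 10, no filter, rescaled totals, quantile normalization, no trend, compared groups only, a replicate block, weights per library, each sequence once and leaving out each library.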

Additional observations from a re-analysis of the deposited data

How the results depend on the processing

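Of 480 values for single family entries under the alternatives other than leaving out a library, 460 kept direction and side of the threshold, 5 came to pass it and 15 changed sign, and of 432 values with a library left out, 397, 3 and 32 did; none that passed was lost, since none had passed. Part of these values could not change sign. No filter, no trend, compared groups only, the replicate block and each sequence once leave the log2 fold change as it is. Leaving out a library of the group not compared does so too. The counts therefore overstate how steady the direction was. The 8 that came to pass are in the report. For each sign change and moved count below, the cause was not tested. Over the table, the counts of calls, 14 in AA against CTR, 0 in IGF1 against CTR and 5 in AA against IGF1, became 31, 2 and 10, in that order, with the replicate block and 104, 5 and 20 with weights per library, and the last became 1 without the trend. Those of the family became 0, 0 and 1 with the block and 3, 0 and 1 with the weights. Quantile normalization turned the split of calls in AA against CTR from 11 higher and 3 lower to 9 and 7, and the block to 19 and 12. Leaving out 1 library gave 8 to 40, 0 to 2 and 1 to 13 calls over the table and 0 to 2, 0 and 0 to 1 in the family, with the highest of each without CTR replicate 1. The count of 8 came without AA replicate 2, and that of 1 when AA replicate 2, AA replicate 3 or IGF1 replicate 1 was left out.

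In log2 fold change, AA against CTR changed sign with weights for miR-130b-3p (0.0162) and miR-130a-5p_L+1 (-0.136) and with quantile normalization for miR-130a_R+1 (-0.0801) and miR-130d-3-5p_2ss5CT12AG (-0.0663). IGF1 against CTR did so with quantile normalization for miR-454b_R-2 (-0.0381), miR-130b-3p (-0.188) and miR-130c-5p (-0.00309), and with weights for miR-454b_R-2 (-0.0229), miR-130a (0.0511), miR-130c-5p (-0.00314) and miR-301a-5p_L+1 (-0.349). AA against IGF1 did so for miR-301b with rescaled totals (-0.00404), quantile normalization (-0.0285) and weights (-0.0529), and with weights for miR-130b_R+1 (0.00721). With a library left out, the ranges that crossed 0 in AA against CTR were those of miR-130a_R+1 (-0.012 to 0.20), miR-130b-5p (-0.35 to 0.056), miR-130d-3-5p_2ss5CT12AG (-0.14 to 0.26) and miR-130a-5p_L+1 (-0.58 to 2.08). In IGF1 against CTR they were those of miR-454b_R-2 (-0.057 to 0.20), miR-130b-3p (-0.054 to 0.085), miR-130a (-0.096 to 0.024), miR-130b-5p (-0.30 to 0.11), miR-130d-3-5p_2ss5CT12AG (-0.071 to 0.23), miR-130c-5p (-0.15 to 0.30), miR-301a-5p_L+1 (-0.28 to 0.43) and miR-130a-5p_L+1 (-0.53 to 2.14). In AA against IGF1 they were those of miR-301d-3p (-0.32 to 0.23), miR-301b (-0.27 to 0.27), miR-130b_R+1 (-0.24 to 0.068), miR-130b-5p (-0.13 to 0.033), miR-130d-3-5p_2ss5CT12AG (-0.21 to 0.19) and miR-130a-5p_L+1 (-0.42 to 0.20).

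The replicate number pairs the libraries by the correlation check only for IGF1 and CTR, and 13 of 18 library and group cases correlated best with their own number. For miR-301b-5p in AA against IGF1 the block left the log2 fold change at 0.81 and gave an adjusted p of 0.0228 (limma), and it changed no other call among family entries. The normalization of the table was the authors' own, so depth could be inferred from low values but not from a stated total.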
